A study of Ovis aries with 7 samples.

Results

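Metabotropic glutamate receptors are receptors for glutamate that signal through G proteins. The genes GRM2, GRM3, GRM4, GRM5, GRM7 and GRM8 were looked up by symbol in the gene list of single-nucleus RNA sequencing libraries of sheep striatum. Of these 6 symbols, 5 were present among 26479 features, namely GRM2 (ENSOARG00020026015), GRM3 (ENSOARG00020000597), GRM4 (ENSOARG00020018722), GRM7 (ENSOARG00020011716) and GRM8 (ENSOARG00020004541). No feature carried the symbol GRM5, so that this gene, the main group I receptor of the list, was not analysed here. The nuclei came from frozen striatum of sheep aged 5 years. OVT73 sheep carry a transgene of full-length human HTT with an expanded glutamine tract, the mutation type of Huntington's disease, and the control sheep were wild-type. Each of the 3 OVT73 libraries was a pool of 2 sheep. Of the 4 control libraries, numbers 1 and 2 held 1 sheep each and numbers 3 and 4 were pools of 2 sheep. Pooled sheep were not separated, so that each library was 1 replicate. P-values therefore measure the spread between these libraries only. OVT73 is described by the study as a model without loss of striatal cells or motor signs, and the comparison asks whether striatal transcripts already differ at this stage.

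These receptors fall into 3 groups by sequence and coupling. Group I receptors, among them GRM5, couple to Gq and phospholipase C. Group II receptors (GRM2 and GRM3) and group III receptors (GRM4, GRM7 and GRM8) couple to Gi/o proteins and lower cyclic AMP. Many group II and III receptors sit on axon terminals, where they reduce transmitter release, and GRM3 is also well known from glia. In the striatum, medium spiny neurons (MSNs) receive glutamate from cortex and thalamus, and D1 MSNs of the direct pathway are distinguished from D2 MSNs of the indirect pathway.

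Counts were of unique molecular identifiers (UMIs) in 35272 barcodes. There were 27760110 to 70473426 UMIs per OVT73 library and 20887378 to 27704528 per control library. After limits on detected genes and mitochondrial UMIs and removal of likely doublets, 32599 nuclei were kept, with library medians of 1860 to 2562 UMIs. Any pair of libraries shared 2 to 20 barcodes. Of 26 clusters, 16 were named from marker transcripts and formed 12 classes with 30750 nuclei, and a class name followed by "-like" rests on these transcripts alone. The largest classes were oligodendrocyte-like (15068 nuclei, median 1761 UMIs), oligodendrocyte precursor (OPC)-like (2927 nuclei, 3582 UMIs), microglia-like (2866 nuclei, 1405 UMIs), D1 MSN-like (2658 nuclei, 22386 UMIs), D2 MSN-like (2241 nuclei, 23678 UMIs) and astrocyte-like (2107 nuclei, 2715 UMIs). All 10 MSN markers were detected in D1 and D2 MSN-like nuclei, at a summed level of 20622 to 24110 CPM. CPM are UMIs scaled to the same total in each class and library. These classes were named from the same markers, so that this is no separate check of the striatal label. All 10 were also detected in OPC-like, astrocyte-like and oligodendrocyte-like nuclei, at a summed level of 1113 to 2125 CPM. The added HTT feature of the gene list, which stands for the transgene, had 342, 63 and 27 UMIs in OVT73 libraries 1, 2 and 3, and 1, 2, 5 and 6 UMIs in control libraries 1, 2, 3 and 4. The added feature was thus higher in each OVT73 library than in any control library.

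A level is given below as CPM of the UMIs summed over the nuclei of a class in a library, with the mean ± SD over the 7 libraries. Levels were not scaled by gene length and are compared between classes, never between genes. Only GRM4 was among the variable genes used for clustering. When the receptors were left out of it and each new cluster took the class that most of its nuclei had before, 98.9% of nuclei had the same class. When the new clusters were instead named anew from their markers, 91.9% did, since 2230 of the 2241 D2 MSN-like nuclei then fell to MSN-like nuclei of no subtype and the eccentric MSN-like class took in 233 further nuclei. Comparisons between classes describe levels and were not tested.

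**Figure D1:**
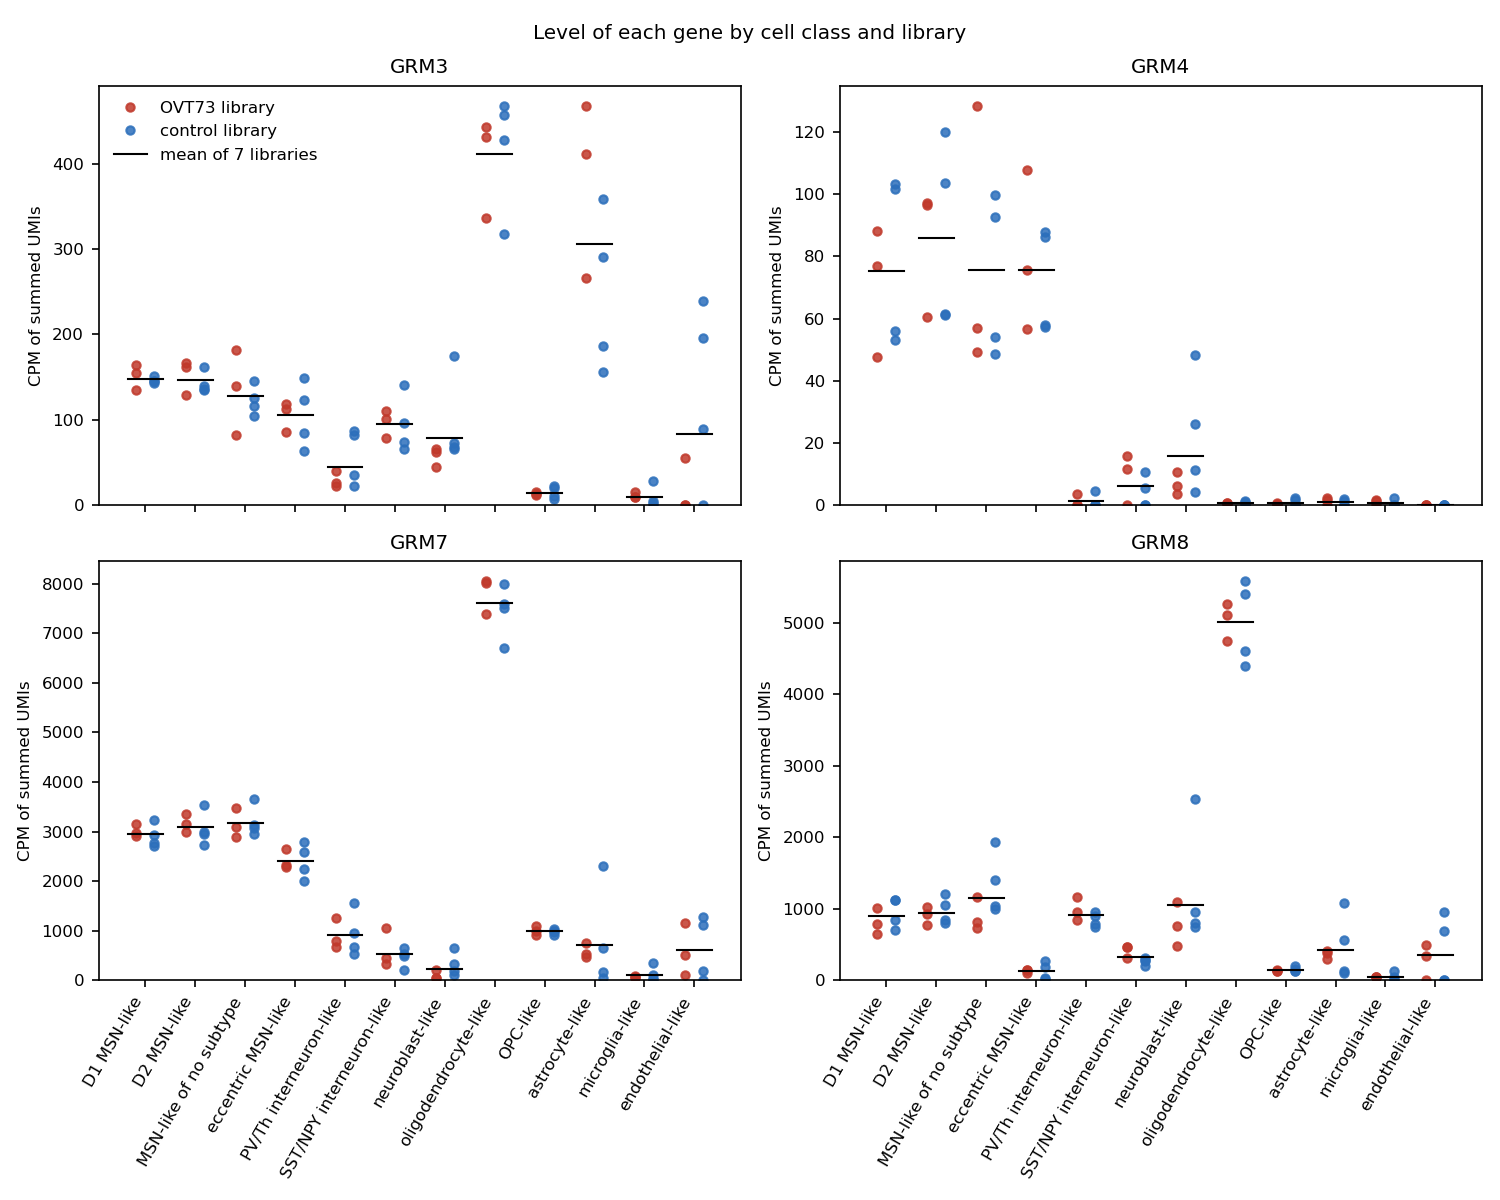
Level of GRM3, GRM4, GRM7 and GRM8 (vertical axes, CPM) in the 12 cell classes (horizontal axis). Points are libraries, red for OVT73 and blue for control, and the black line is the mean of 7. GRM7, GRM8 and GRM3 were highest in oligodendrocyte-like nuclei, and GRM4 was highest in the MSN-like classes.

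Of the group II receptors, GRM2 was barely detected. It had 19 UMIs in all nuclei kept, of which 8 were in PV/Th interneuron-like nuclei, 5 in unnamed clusters, 3 in D1 MSN-like, 2 in eccentric MSN-like and 1 in oligodendrocyte-like nuclei. Its highest class mean was 1.67 CPM ± 1.91 (SD, n = 7), in PV/Th interneuron-like nuclei. With 0 UMIs in D2 MSN-like and astrocyte-like nuclei, among other classes, GRM2 was not detectable there at this depth.

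GRM3, the group II receptor known from astrocytes, was measured in both glia and neurons. It was highest in oligodendrocyte-like nuclei at 412 CPM ± 59.7 (SD, n = 7), followed by astrocyte-like nuclei at 306 CPM ± 115 (SD, n = 7). Oligodendrocyte-like nuclei had more GRM3 than astrocyte-like nuclei in 6 of 7 libraries. MSN-like nuclei held a middle level, with 148 CPM ± 9.32 in D1 and 147 CPM ± 15.4 (SD, n = 7) in D2 MSN-like nuclei, which did not differ beyond their spread. OPC-like nuclei had 14.3 CPM ± 5.41 and microglia-like nuclei 9.73 CPM ± 9.52 (SD, n = 7). GRM3 was thus 30.4-fold higher in oligodendrocyte-like than in OPC-like nuclei, by the geometric mean over libraries (range 20.6 to 45.5). The OPC-like level was above that scaled from oligodendrocyte transcripts, described below, in only 1 of 7 libraries (14.3 against 17.4 CPM).

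GRM3 divided the astrocyte-like class. Its 2 clusters are cluster 9, led by the glutamate transporter gene SLC1A2, and cluster 8, led by DTHD1. SLC1A2, the transporter gene SLC1A3 and GFAP were among the leading genes of both clusters. The median depth, doublets included, was 4133 UMIs in cluster 9 and 2059 UMIs in cluster 8. Cluster 9 held 407 CPM ± 119 of GRM3 and cluster 8 held 174 CPM ± 97.6 (SD, n = 7). The ratio was 2.66-fold on the geometric mean, and cluster 9 was higher in 7 of 7 libraries. Since clusters are cut from the transcripts of the same nuclei, this is a description of the clusters.

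Interneurons showed another order. GRM3 was 95.0 CPM ± 25.6 in the 106 SST/NPY interneuron-like nuclei and 45.0 CPM ± 27.8 (SD, n = 7) in the 337 PV/Th interneuron-like nuclei, higher in the former in 6 of 7 libraries. Across 12 classes and 12016 genes, the genes with class means most like those of GRM3 were SH3RF2 (Pearson r = 0.89), TEX11 (r = 0.88) and LRRC36 (r = 0.87). The 12 points of each such correlation come from the same 7 libraries, and they differ in depth.

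Among the group III receptors, GRM4 was found mostly in MSN-like nuclei. D1 MSN-like nuclei held 46.3% and D2 MSN-like nuclei 44.4% of its UMIs. Its level was 85.8 CPM ± 24.4 in D2, 75.2 CPM ± 23.3 in D1, 75.6 CPM ± 19.6 in eccentric MSN-like nuclei and 75.8 CPM ± 31.4 (SD, n = 7) in MSN-like nuclei of no subtype. These 4 means lay within 1 SD of each other. Within libraries D2 was higher than D1 MSN-like in 7 of 7, by 1.15-fold on the geometric mean (range 1.02 to 1.27). GRM4 was itself among the genes used for clustering. With the receptors left out and clusters named anew, tried after the data were seen, most D2 nuclei fell to 3096 MSN-like nuclei of no subtype. The ratio of D1 MSN-like nuclei to that mixed class was 0.872 (range 0.79 to 1.04), so that the order did not hold in every library. Neuroblast-like nuclei had 15.8 CPM ± 16.3, SST/NPY interneuron-like nuclei 6.18 CPM ± 6.47 and oligodendrocyte-like nuclei 0.698 CPM ± 0.457 (SD, n = 7). The class pattern was most like those of the leptin receptor gene LEPR (r = 0.99), LMO7 (r = 0.98) and ENSOARG00020005250 (r = 0.97).

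GRM4 had a further feature, a split between libraries that ran through the D1, D2 and eccentric MSN-like classes and not along the genotype. In D1 MSN-like nuclei it was 47.7, 88.1 and 76.8 CPM in OVT73 libraries 1, 2 and 3, and 56.1, 53.1, 102 and 103 CPM in control libraries 1, 2, 3 and 4. In D2 MSN-like nuclei the values were 60.7, 97.2 and 96.6 CPM for OVT73, and 61.6, 61.0, 104 and 120 CPM for control libraries, in the same order. OVT73 library 1 and control libraries 1 and 2 were the lowest 3 in both classes. The eccentric MSN-like nuclei had the same lowest 3, with 56.7, 57.9 and 57.3 CPM against 75.5 to 108 CPM in the other libraries. MSN-like nuclei of no subtype had 49.4, 128 and 56.9 CPM in OVT73 and 92.9, 54.2, 48.8 and 99.9 CPM in control libraries. These values rest on 25, 22 and 11 UMIs of GRM4 in OVT73 and 4, 22, 7 and 22 UMIs in control libraries. With so few UMIs this class cannot show whether it had the split. The low libraries included both that hold a single sheep, and with pooled sheep unseparated the level per animal is not known. The classes share their libraries, so that they are not separate evidence of the split.

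**Figure D2:**
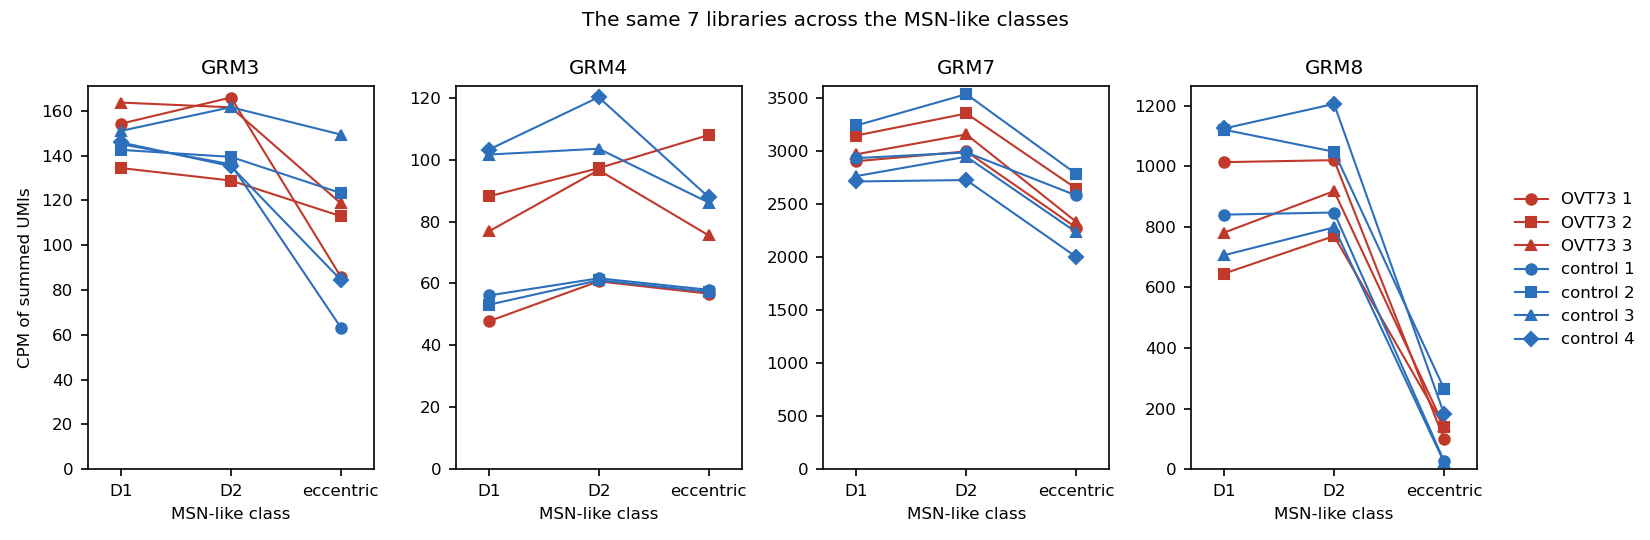
Level of GRM3, GRM4, GRM7 and GRM8 (CPM, vertical axes) in D1, D2 and eccentric MSN-like nuclei. Each line is 1 library, red for OVT73 and blue for control. GRM4 shows 3 low libraries in each class, 1 OVT73 and 2 control, and GRM8 falls in eccentric MSN-like nuclei in 7 of 7 libraries.

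GRM7, a presynaptic receptor of low glutamate affinity in neurons, was highest in oligodendrocyte-like nuclei. Its level there was 7614 CPM ± 485, against 3180 ± 280 in MSN-like nuclei of no subtype, 3101 ± 272 in D2, 2953 ± 190 in D1 and 2408 CPM ± 273 (SD, n = 7) in eccentric MSN-like nuclei. Oligodendrocyte-like nuclei exceeded D1 MSN-like nuclei by 2.58-fold on the geometric mean, in 7 of 7 libraries. The libraries of the 3 higher MSN-like classes overlapped, although D2 was above D1 MSN-like in 7 of 7 libraries, by 1.05-fold. The class of no subtype was shallow, with a median of 1265 UMIs, and 12.45% of the nuclei of its cluster were marked as doublets. D1 was above eccentric MSN-like nuclei in 7 of 7 libraries, by 1.23-fold, and by 1.46-fold with the eccentric class of 432 nuclei described below.

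Next in order for GRM7 came OPC-like nuclei at 986 CPM ± 65.8 and PV/Th interneuron-like nuclei at 919 CPM ± 368, which overlapped. SST/NPY interneuron-like nuclei had 529 CPM ± 274, neuroblast-like nuclei 220 CPM ± 214 and microglia-like nuclei 97.9 CPM ± 114 (SD, n = 7). From OPC-like to oligodendrocyte-like nuclei the level of GRM7 was 7.73-fold higher, with a narrow range of 6.76 to 8.77 over libraries. The class patterns most like that of GRM7 were those of ENSOARG00020009107 (r = 0.95), MOGAT1 (r = 0.94) and ENSOARG00020001762 (r = 0.93).

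GRM8, another group III receptor, shared the peak in oligodendrocyte-like nuclei, with 5013 CPM ± 440 (SD, n = 7). MSN-like nuclei of no subtype followed at 1151 ± 407, neuroblast-like nuclei at 1051 ± 679, D2 MSN-like at 944 ± 157, PV/Th interneuron-like at 905 ± 138 and D1 MSN-like at 891 CPM ± 197 (SD, n = 7). These 5 classes overlapped. For MSN-like nuclei of no subtype, the level of GRM8 scaled from oligodendrocyte transcripts, described below, was 296 CPM. Oligodendrocyte-like nuclei exceeded D1 MSN-like nuclei by 5.73-fold and OPC-like nuclei (143 CPM ± 27.6) by 35.4-fold on geometric means, in 7 of 7 libraries each. The OPC-like level was in no library above the one scaled from oligodendrocyte transcripts. The closest class patterns were those of OSBP2 (r = 0.92), the synaptotagmin gene SYT11 (r = 0.90) and SLC22A23 (r = 0.90).

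Eccentric MSNs are a small class of MSNs apart from the D1 and D2 types, and the nuclei given this name had little GRM8. They held 98.8, 139 and 142 CPM in OVT73 libraries 1, 2 and 3 and 26.3, 266, 22.8 and 182 CPM in control libraries 1, 2, 3 and 4. D1 MSN-like nuclei held 1014, 646 and 781 CPM in the OVT73 libraries and 841, 1121, 707 and 1125 CPM in the control libraries. The ranges of the 2 classes were apart, with a ratio of 9.46-fold on the geometric mean (range 4.22 to 31.9). GRM4 and GRM3 did not show such a gap between D1 and eccentric MSN-like nuclei, with ratios of 0.980 and 1.45. Only 198 nuclei were eccentric MSN-like, with 672 UMIs of GRM8 in all. The gap between the classes depended on where the eccentric MSN-like class ended. With the receptors left out of clustering these 198 nuclei formed 1 cluster with 233 nuclei of the unnamed cluster 16, and the 432 nuclei of that new cluster, again named eccentric MSN-like by their markers, held 817 CPM ± 178 (SD, n = 7) of GRM8. D1 MSN-like nuclei, named in the same way, then exceeded them by 1.07-fold (range 0.624 to 1.80), so that this wider class showed no such gap. It joins the 198 nuclei, whose own low values are those above, to nuclei of cluster 16, which had more GRM8. This naming was tried after the data were seen. Cluster 16 by itself, led by KCNIP4, GALNTL6 and FOXP2 and singled out after its values were seen, held 2199 CPM ± 521 of GRM8 and 1292 CPM ± 403 (SD, n = 7) of GRM7.

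Interneurons differed in the same gene. GRM8 was 2.85-fold higher in PV/Th than in SST/NPY interneuron-like nuclei on the geometric mean, in 7 of 7 libraries. GRM7 was higher in PV/Th interneuron-like nuclei in 6 of 7 libraries, by 1.82-fold. The level scaled from oligodendrocyte transcripts, described below, was also higher in PV/Th interneuron-like nuclei. For GRM7 it was 502 CPM there, beside 919 measured, and 92.9 CPM in SST/NPY interneuron-like nuclei, beside 529 measured. For GRM8 it was 330 CPM beside 905 and 57.1 CPM beside 327, in the same order. It rests on a marker sum of 502 to 679 CPM in PV/Th and 16.4 to 311 CPM in SST/NPY interneuron-like nuclei. Whether PV/Th interneuron-like nuclei express any of these markers themselves was not tested. The part of these transcripts in the 2 differences was not tested.

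To compare nuclei of unequal depth, the share of nuclei with at least 1 UMI of a gene was calculated as if each nucleus had been thinned to 1000 UMIs. Oligodendrocyte-like nuclei then had GRM7 in 97.7% ± 1.37 and GRM8 in 97.9% ± 0.749 (SD, n = 7), and both in 95.6% ± 1.90. Without thinning the shares were 97.9% for GRM7 and 98.8% for GRM8. Microglia-like nuclei, the class in which these genes and GRM3 were lowest, had GRM7 in 5.13% ± 4.22 and GRM8 in 2.56% ± 2.06 (SD, n = 7), and 6.23% and 3.22% without thinning. Their median depth was 1405 UMIs, against 1761 in oligodendrocyte-like nuclei. Thinning left out 6.83% of OVT73 and 15.9% of control nuclei of the oligodendrocyte-like class, and 13.6% and 25.4% of the microglia-like class.

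MSN-like nuclei held GRM7 nearly as widely, and interneuron-like nuclei did not. At 1000 UMIs GRM7 was in 92.9% ± 1.09 of D1 and 93.3% ± 1.15 of D2 MSN-like nuclei, and GRM8 in 52.4% ± 8.48 and 56.0% ± 5.88 (SD, n = 7). In eccentric MSN-like nuclei GRM7 was in 88.2% ± 3.75 and GRM8 in 10.2% ± 6.17 (SD, n = 7). PV/Th interneuron-like nuclei had GRM7 in 47.7% ± 11.5 and GRM8 in 53.5% ± 5.29, and SST/NPY interneuron-like nuclei in 31.1% ± 10.1 and 25.0% ± 6.0 (SD, n = 7). GRM3 was in 30.9% ± 3.52 of oligodendrocyte-like, 19.7% ± 6.12 of astrocyte-like and 13.7% ± 1.22 (SD, n = 7) of D1 MSN-like nuclei, against 1.05% ± 1.24 of microglia-like nuclei. GRM4 was in 6.85% ± 1.70 of D1 and 7.40% ± 1.86 (SD, n = 7) of D2 MSN-like nuclei, and in 0.0469% of microglia-like nuclei. At full depth GRM4 reached 71.7% of D1 and 72.7% of D2 MSN-like nuclei, of which the median nucleus had 22386 and 23678 UMIs.

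The oligodendrocyte-like class held 3 clusters, in which the receptors did not run in parallel. Cluster 6, led by MOBP, SLC5A11, ANLN and ENPP6, had 10679 CPM ± 1438 of GRM7, cluster 1 had 7379 ± 524 and cluster 0 had 6420 CPM ± 781 (SD, n = 7). This order held in 7 of 7 libraries, with cluster 6 above cluster 0 by 1.66-fold on the geometric mean. GRM8 had the reverse position, and cluster 6 (4522 CPM ± 424) was below cluster 0 (5022 ± 444) and cluster 1 (5250 ± 453) in 7 of 7 libraries, by ratios of 0.900 and 0.861. GRM3 was 438 CPM ± 65.1 in cluster 0 and 410 CPM ± 95.2 (SD, n = 7) in cluster 6, a difference within the spread.

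Transcripts of oligodendrocyte markers were found in all other classes, and their amount differed between libraries. The sum of 9 oligodendrocyte markers (MOG, MOBP and others) was 7881 to 10743 CPM in oligodendrocyte-like nuclei. In astrocyte-like nuclei it was lowest in control library 2 at 89.7 CPM and highest in control library 3 at 2587 CPM. GRM7 was also lowest and highest in these libraries, with 36.5 and 2314 CPM, and so was GRM8, with 103 and 1080 CPM. Microglia-like nuclei had their highest values in control library 3 as well, with 606 CPM of the markers, 346 CPM of GRM7 and 134 CPM of GRM8. The other libraries lay between 160 and 317 CPM for the markers, 21.1 and 102 CPM for GRM7 and 4.21 and 51.0 CPM for GRM8.

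**Figure D3:**
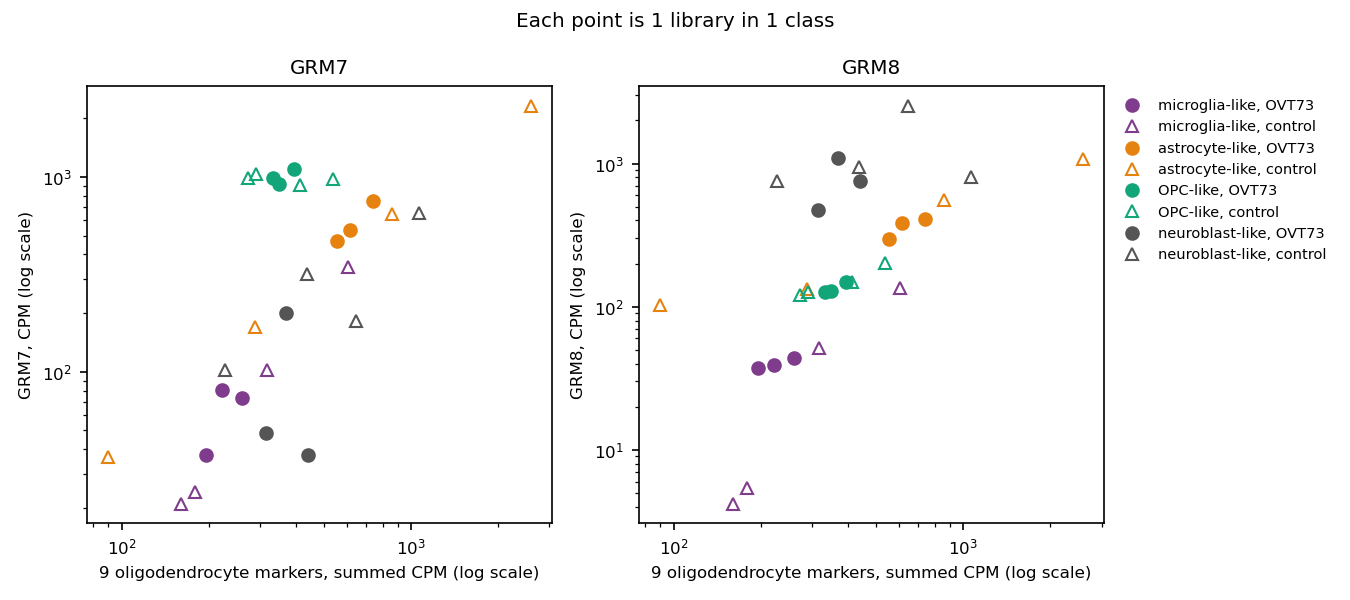
Level of GRM7 and GRM8 (vertical axes, CPM, log scale) against the summed level of 9 oligodendrocyte markers (horizontal axis, CPM, log scale) in microglia-like, astrocyte-like, OPC-like and neuroblast-like nuclei. Each symbol is 1 library, filled circles for OVT73 and open triangles for control. In astrocyte-like nuclei both receptors are lowest in the library with the fewest marker transcripts and highest in the one with the most.

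A level scaled from oligodendrocyte transcripts was calculated per library. It was the level of the gene in oligodendrocyte-like nuclei times the ratio of the marker sums in the 2 classes. This takes all marker transcripts of a class as carried over, with the receptor transcripts in the same ratio. For astrocyte-like nuclei this gave 695 CPM of GRM7, against 702 CPM measured, and 425 CPM of GRM8, against 423 CPM measured. The measured values were above it in 2 of 7 libraries for each gene, and control library 3 carried much of these means. Without it 434 CPM of GRM7 were measured against 461 CPM scaled, and 314 against 305 CPM of GRM8. For microglia-like nuclei it gave 235 CPM of GRM7 and 149 CPM of GRM8, and the measured values were below it in 7 of 7 libraries. The scaled level was thus above what carried-over transcripts can have brought there, and is only a rough guide in other classes. OPC-like nuclei were above it for GRM7, with 986 CPM measured against 317 CPM in 7 of 7 libraries, and below it for GRM8 in 7 of 7 libraries (143 against 206 CPM). Neuroblast-like nuclei were above it for GRM8, with 1051 against 275 CPM in 7 of 7 libraries, and below it for GRM7 (220 against 429 CPM). GRM3 of astrocyte-like nuclei was above it in 7 of 7 libraries (306 against 39.4 CPM). GRM3 of OPC-like nuclei (14.3 against 17.4 CPM) and of microglia-like nuclei (9.73 against 13.1 CPM) was above it in 1 of 7 libraries each, and that of PV/Th interneuron-like nuclei in 5 of 7 (45.0 against 27.5 CPM). In D1 and D2 MSN-like nuclei the marker sum was 1.06% and 1.22% of that in oligodendrocyte-like nuclei, and GRM3, GRM4, GRM7 and GRM8 were above the scaled level in 7 of 7 libraries. The same held in eccentric MSN-like nuclei for GRM3, GRM4 and GRM7, while GRM8 was above it there in 5 of 7 libraries (125 against 62.9 CPM). In MSN-like nuclei of no subtype the marker sum was higher, at 5.84% of that in oligodendrocyte-like nuclei. The scaled level there was 433 CPM of GRM7, beside 3180 measured, and 296 CPM of GRM8, beside 1151 measured. Transcripts of MSNs were not scaled in this way, although the MSN markers had 1442 to 2125 CPM in OPC-like nuclei. A level above the scaled one is therefore not shown to be the class's own.

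OVT73 was compared with control on summed UMIs per library in the 10 classes of which every library held 10 nuclei or more, with edgeR's quasi-likelihood test and Benjamini-Hochberg adjustment over all genes of a class. GRM3 passed the filter on low counts in 9 classes, GRM4 in the 4 MSN-like classes, and GRM7 and GRM8 in 10 classes each, which made 33 tests, while GRM2 passed in none. None of the 33 had an adjusted p under 0.05 in edgeR or in DESeq2. None had an unadjusted p under 0.05 in edgeR, and 3 had one in DESeq2, namely GRM3 in PV/Th interneuron-like and astrocyte-like nuclei and GRM7 in neuroblast-like nuclei. Of all genes tested in these classes, DESeq2 gave such a p to 2.73%, 3.09% and 3.1%. In none of them were the libraries of the groups apart. OVT73 was higher in 18 and lower in 15 tests, and 22 log2 fold changes were smaller in size than 0.2. The classes share libraries and are not independent.

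Over all genes the background was as low for adjusted p. The share of genes called was 0% in 8 classes, 0.0111% in OPC-like nuclei and 0.0159% in eccentric MSN-like nuclei, each of the latter from 1 gene. The share with unadjusted p under 0.05 was 4.47% in D1 MSN-like, 4.11% in D2 MSN-like, 3.99% in MSN-like nuclei of no subtype and 7.15% in eccentric MSN-like nuclei. It was 5.2% in oligodendrocyte-like, 6.76% in OPC-like, 4.54% in astrocyte-like, 4.35% in microglia-like, 4.22% in neuroblast-like and 4.38% in PV/Th interneuron-like nuclei. In DESeq2 the share with unadjusted p under 0.05 in the other classes was 4.74% in D1 MSN-like, 3.87% in D2 MSN-like, 2.75% in MSN-like nuclei of no subtype, 4.72% in eccentric MSN-like, 4.42% in oligodendrocyte-like, 4.9% in OPC-like and 2.59% in microglia-like nuclei. Genes whose groups did not overlap made up 5.45% in D1 MSN-like, 5.44% in D2 MSN-like, 5.42% in MSN-like nuclei of no subtype, 7.34% in eccentric MSN-like, 6.62% in oligodendrocyte-like, 7.58% in OPC-like, 5.4% in astrocyte-like, 5.5% in microglia-like, 5.27% in neuroblast-like and 5.26% in PV/Th interneuron-like nuclei.

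**Figure D4:**
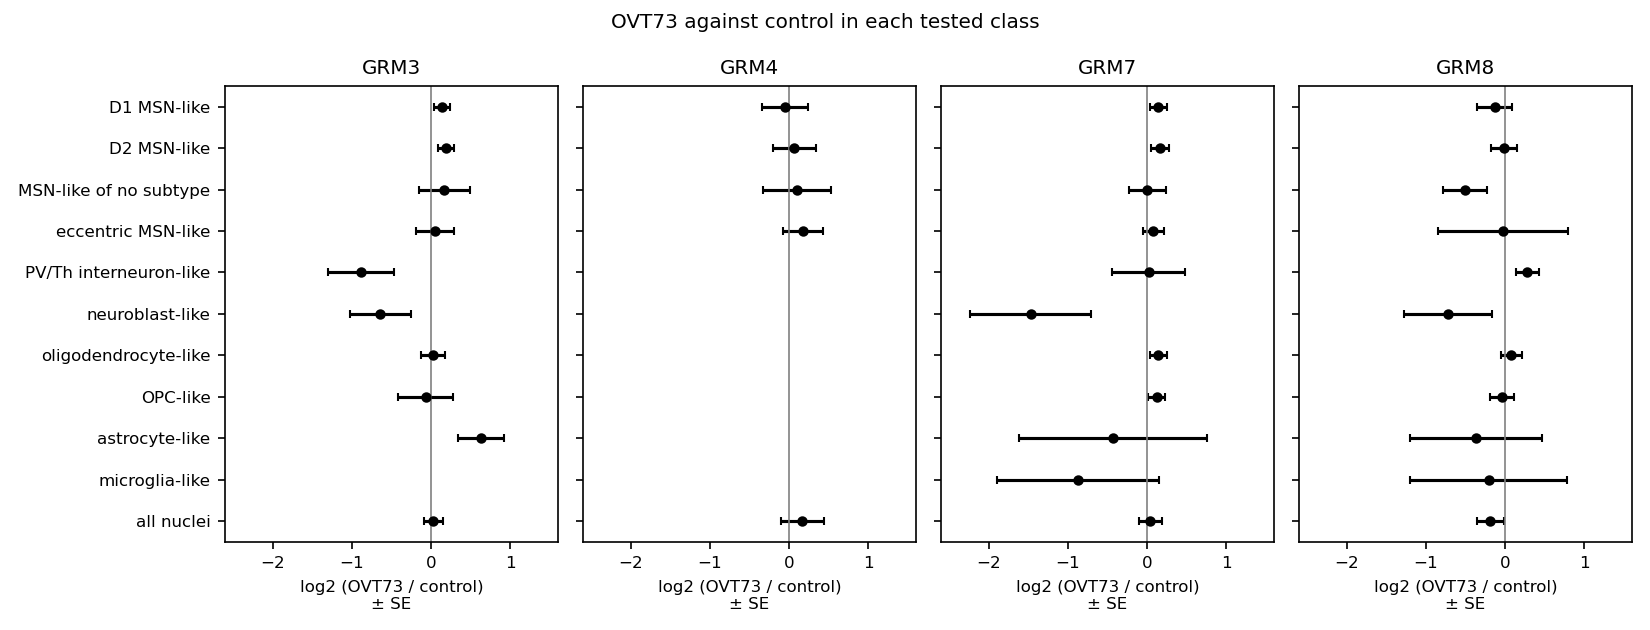
Log2 fold change of OVT73 over control (horizontal axis, edgeR) for GRM3, GRM4, GRM7 and GRM8 in each class tested, with bars of 1 SE. Positive values are higher in OVT73. No adjusted p was under 0.05, and the widest bars are those of GRM7 and GRM8 in astrocyte-like and microglia-like nuclei.

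In oligodendrocyte-like nuclei, where GRM7, GRM8 and GRM3 were highest, the groups were close. GRM7 was 7509, 8676 and 8079 normalised CPM (scaled with TMM factors) in OVT73 libraries 1, 2 and 3, while control libraries 1, 2, 3 and 4 had 7490, 7780, 7503 and 6599. The OVT73 libraries held the 2 highest values but overlapped with the controls. The means were 8088 ± 584 (SD, n = 3) and 7343 ± 514 (SD, n = 4), a log2 fold change of 0.14 ± 0.11 (SE, edgeR adjusted p = 0.88, two-sided exact permutation p = 0.143). GRM8 had a log2 fold change of 0.08 ± 0.13 and GRM3 of 0.02 ± 0.15 (SE, edgeR adjusted p = 0.96 and 0.99). Control library 4 had the lowest GRM7, and control library 1 the lowest GRM3, with 316 normalised CPM against 438 to 450 in the other controls.

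GRM3 had its largest positive difference in astrocyte-like nuclei. It was 275, 497 and 421 normalised CPM in the OVT73 libraries and 189, 160, 363 and 294 in the control libraries, in order. The 2 highest values were OVT73, and OVT73 library 1 lay among the controls. The means were 398 ± 113 (SD, n = 3) and 251 ± 94.1 (SD, n = 4), and the log2 fold change was 0.63 ± 0.29 (SE, edgeR adjusted p = 1.00, two-sided exact permutation p = 0.143). Without the filter on low counts it was 0.72 with an adjusted p of 0.0637 (edgeR). With equal numbers of nuclei it was 0.44. With 1 library left out it ran from 0.44 (without OVT73 library 2) to 0.86 (without control library 3). The GRM3-rich cluster 9 made up 45.2% of astrocyte-like nuclei in OVT73 and 38.8% in control libraries (two-sided exact permutation p = 0.171), and within clusters 8 and 9 the log2 fold changes were 0.58 and 0.45. The part of the cluster shares in the difference was not tested.

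In D1 and D2 MSN-like nuclei GRM3 and GRM7 were slightly higher in OVT73, within the spread. GRM3 in D1 MSN-like nuclei was 163, 144 and 164 normalised CPM in OVT73 and 142, 143, 139 and 147 in control libraries. OVT73 library 2 lay below control library 4, so that the groups overlapped. On the log2 scale this came to 0.14 ± 0.10 (SE, edgeR adjusted p = 0.91), with a two-sided exact permutation p of 0.0571, the smallest among the 33 tests, where the design allows 0.0286. In D2 MSN-like nuclei it was 0.19 ± 0.11 (SE, edgeR adjusted p = 0.95).

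GRM7 had log2 fold changes of 0.14 ± 0.11 in D1 and 0.16 ± 0.11 (SE) in D2 MSN-like nuclei, with edgeR adjusted p of 0.91 and 0.95. GRM8 had -0.13 ± 0.22 and -0.02 ± 0.17, and GRM4 had -0.05 ± 0.29 and 0.07 ± 0.27 (SE). The difference between D2 and D1 MSN-like nuclei in the OVT73 effect was tested per library on log2 values. It was 0.05 for GRM3, 0.13 for GRM4, 0.02 for GRM7 and 0.12 for GRM8, with two-sided exact permutation p of 0.543, 0.143, 0.771 and 0.314. No difference between the MSN types in the effect was thus detectable. In eccentric MSN-like nuclei the log2 fold changes ran from -0.02 (GRM8) to 0.17 (GRM4).

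Lower values in OVT73 were found in larger classes, such as GRM8 in D1 MSN-like nuclei, and in rarer ones, none past the threshold. For GRM8 in MSN-like nuclei of no subtype the log2 fold change was -0.51 ± 0.28 (SE, edgeR adjusted p = 0.999). GRM3 in PV/Th interneuron-like nuclei was 23.0, 44.2 and 27.4 normalised CPM in OVT73 and 35.3, 23.9, 81.5 and 88.6 in control libraries. Control libraries 3 and 4 were high, and the others overlapped with OVT73. The log2 fold change was -0.88 ± 0.42 (SE, edgeR adjusted p = 0.99, two-sided exact permutation p = 0.314), and -0.56 without control library 4. In the same class GRM8 had a log2 fold change of 0.28 ± 0.15 (SE, edgeR adjusted p = 0.99), and 0.12 without OVT73 library 2.

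In neuroblast-like nuclei the log2 fold change of GRM7 was -1.47 ± 0.76 (SE, edgeR adjusted p = 1.00), from 224, 41.6 and 52.7 normalised CPM in OVT73 and 113, 220, 689 and 346 in control libraries. Control library 3 was the highest, and it also held the most oligodendrocyte marker transcripts in this class, with 1065 CPM against 227 to 645 in the other 6. The part of these transcripts in the difference was not tested. Leaving out 1 library moved the GRM7 value both ways, from -2.78 (without OVT73 library 1, edgeR adjusted p = 0.78) to -0.99 (without control library 3). Without OVT73 library 2 or 3 the value was -1.16 or -1.21. Keeping doublets gave -2.26, drawing as many nuclei from each library gave -2.43, and dropping the filter on low counts gave -1.30. GRM8 in these nuclei had 1223, 846 and 519 normalised CPM in OVT73 and 827, 3043, 842 and 1035 in control libraries, with control library 2 high and the rest overlapping (log2 fold change -0.72 ± 0.56, SE, edgeR adjusted p = 1.00). Without control library 2 it was -0.07.

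Control library 3 decided the direction in astrocyte-like and microglia-like nuclei. GRM7 had a log2 fold change of -0.43 ± 1.19 in astrocyte-like and -0.87 ± 1.02 in microglia-like nuclei (SE), which became 1.02 and 0.38 without that library. GRM8 had -0.37 ± 0.83 and -0.21 ± 0.99 (SE), which became 0.44 and 0.96. The summed oligodendrocyte markers moved with these values, as given above, and their part in the difference was not tested.

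In the sum of all nuclei, GRM3, GRM4, GRM7 and GRM8 were tested. The log2 fold changes were 0.03 ± 0.12 for GRM3, 0.17 ± 0.27 for GRM4, 0.04 ± 0.14 for GRM7 and -0.19 ± 0.17 for GRM8 (SE, edgeR adjusted p of 0.97, 0.91, 0.96 and 0.85). None of the 4 passed, as did 0% of 16061 genes, none had an unadjusted p under 0.05 in edgeR, which 5.39% of genes had, or in DESeq2, which 5.71% had, and none had groups apart, which 6.33% had. In such a sum, fewer cells of a type and less RNA per cell cannot be told apart. Oligodendrocyte-like nuclei, which held 50.2% of the GRM8 UMIs and 33.7% of those of GRM7, contributed 12.4% of all UMIs in OVT73 and 17.1% in control libraries (two-sided exact permutation p = 0.229).

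The share of nuclei with a UMI at 1000 UMIs was compared for GRM3, GRM4, GRM7 and GRM8 in the 10 classes. None of the 40 comparisons had a two-sided exact permutation p under 0.05. Shares were compared for the receptors only, so that this count has no background over all genes. In oligodendrocyte-like nuclei the share with GRM7 was 98.0% in OVT73 and 97.5% in control libraries, and that with GRM3 30.6% and 31.1%. The share with GRM7 was close to its upper limit there, where a rise could hardly show.

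Genes that act with these receptors were taken from a list of 84, of which 79 had a feature. They comprise the Gq and phospholipase C arm, the Gi/o and adenylyl cyclase arm, postsynaptic scaffolds, presynaptic partners, and kinases and RGS proteins that end receptor signals. None passed an adjusted p of 0.05 in any of the 10 classes in edgeR. With unadjusted p under 0.05 there were 3 higher and 2 lower of 72 tested in D1 MSN-like, 2 and 1 of 71 tested in D2 MSN-like, 3 and 3 of 61 tested in oligodendrocyte-like, 5 and 1 of 55 in OPC-like, and 5 and 0 of 47 in astrocyte-like nuclei. Of all genes tested, 4.47%, 4.11%, 5.2%, 6.76% and 4.54% had such a p in edgeR in these classes, in the same order. In astrocyte-like nuclei 173 of these genes were higher and 213 lower. For D1 MSN-like nuclei the list had a median log2 fold change of -0.0035, beside -0.04 over all genes, and for D2 MSN-like nuclei one of 0.02, beside -0.03. It was -0.02 in oligodendrocyte-like nuclei, as over all genes, and 0.07 in OPC-like nuclei beside -0.02 over all genes.

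The members of the list with the smallest p in each class are given as values, since none passed the adjusted threshold. Among kinases that desensitise G protein-coupled receptors, GRK3 was 29.6 ± 3.69 normalised CPM in OVT73 (SD, n = 3) and 19.3 ± 2.33 in control D1 MSN-like nuclei (SD, n = 4), with a log2 fold change of 0.62 ± 0.16 (SE, edgeR adjusted p = 0.91). GRK5 had 0.40 ± 0.12 in D1 and 0.34 ± 0.13 (SE) in D2 MSN-like nuclei. Its groups did not overlap in either, which also held for 5.45% and 5.44% of all genes tested there. Other genes picked by smallest p had this too, such as GRK3 in D1 and RGS2 in D2 MSN-like nuclei. HOMER1, whose proteins tie group I receptors to the postsynaptic density, showed a change (log2) of 0.27 ± 0.09 in D2 MSN-like nuclei (366 ± 15.9 against 305 ± 19.3 normalised CPM) and of 0.41 ± 0.18 in PV/Th interneuron-like nuclei (SE, edgeR adjusted p = 0.95 and 0.99). On the lower side were CACNA1A, the P/Q-type calcium channel of terminals, with -0.28 ± 0.09 in D1 MSN-like nuclei, and RGS2, which shortens Gq signals, with -0.79 ± 0.23 in D2 MSN-like nuclei (SE, edgeR adjusted p = 0.91 and 0.95).

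In glia the members with the smallest p came from both arms and from the scaffolds of the list. GNAI1, an alpha subunit of Gi, had a log2 fold change of 0.31 ± 0.09 in oligodendrocyte-like nuclei and ITPR2, an IP3 receptor gene, had 0.29 ± 0.10, while ADCY3 and ADCY2, both adenylyl cyclase genes, had -0.93 ± 0.28 and -1.60 ± 0.52 (SE, edgeR adjusted p of 0.81 to 0.88). ADCY3 and ADCY2 were low there, with 5.87 and 2.42 normalised CPM in OVT73 and 11.3 and 7.42 in control libraries. In OPC-like nuclei PLCB1, a phospholipase C, had 2964 ± 158 in OVT73 (SD, n = 3) and 2408 ± 191 normalised CPM in control libraries (SD, n = 4), with a log2 fold change of 0.30 ± 0.10, and GNAQ, the Gq subunit, had 0.26 ± 0.10 (SE, edgeR adjusted p = 0.68 each). In astrocyte-like nuclei ADCY8 had 0.77 ± 0.26 and PREX1, listed with the scaffolds, 0.48 ± 0.17 (SE, edgeR adjusted p = 1.00 each). DLGAP1, also listed with the scaffolds, had 0.88 ± 0.24 in microglia-like nuclei (SE, edgeR adjusted p = 0.64).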

How the data were processed

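The authors deposited raw UMI counts per feature and barcode for 7 libraries (Chromium 3' v3.1 kit), made with Cell Ranger 7.0.0 and STAR 2.7.2a on Oar_rambouillet_v1.0 with Ensembl genes. The study does not state whether intronic reads were counted. Its library statistics give a larger share of reads mapped to the transcriptome than to exons in each library. The counts therefore include intronic reads, and levels of a gene include its unspliced nuclear RNA. The counts precede the authors' quality control and their separation of pooled sheep, which was not repeated. Libraries were grouped by their titles and numbered in accession order.

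Nuclei with 200 to 7500 genes and at most 5% UMIs from 35 mitochondrial features were kept. The 4% of nuclei with the highest scrublet scores were removed from each library, since its automatic threshold marked few nuclei. Clustering used 3000 variable genes, 30 components corrected between libraries, 20 neighbours and resolution 1.0 (scanpy 1.11.5, igraph 0.11.9). A cluster was named if at least 3 and at least 60% of a marker list were raised by more than 1.0 (log2) over the mean of the other clusters, at least 1 marker was among its 50 leading genes, fewer than 20% of its nuclei were marked as doublets, and no other list had at least 3 and at least 50% of its markers raised at 0.6 or more of the own mean raise. These thresholds were chosen with the clusters' marker profiles in view, and before the groups were compared. The symbols MBP, ALDH1L1, SOX11, DRD1, GPR52, CASZ1 and ZIC4 of the marker lists, and DGKB, HOMER3, SHANK3 and SIAH1, among others, of the signalling list, matched no feature.

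UMIs were summed per library and class and tested with edgeR 4.0.16 in R 4.3.3 (filterByExpr, TMM factors, robust quasi-likelihood test, two-sided, no covariate). Normalised CPM are scaled with TMM factors, and other CPM are of the summed UMIs. For single values an exact permutation test, two-sided, ran over all 35 ways of drawing 3 of the 7 libraries (smallest p 0.0286). Shares of nuclei were calculated for 1000 UMIs per nucleus from the hypergeometric probability, leaving out shallower nuclei. D2 minus D1 effects used log2(CPM + 1). Alternatives were DESeq2 1.42.0, no TMM factors, no filter, each library left out, doublets kept, the receptors left out of clustering (each new cluster taking the class that most of its nuclei had), equal numbers of nuclei, thinning to 500 UMIs or not at all, a pseudocount of 5, and means over nuclei. The fits were tested on simulated data. The genes named are the receptors, in each class at most 2 genes per direction of the signalling list by smallest p, and per receptor the 3 genes with the highest Pearson correlation of log2(CPM + 1) over 12 classes among genes with at least 10 CPM in a class. The members and lists were chosen with earlier results of these data known. The genome annotation at hand was of another assembly, so that coordinates and gene lengths were not used.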

Additional observations from a re-analysis of the deposited data

Results flagged for a closer look

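In each of the 37 comparisons of a receptor in a class or in all nuclei, the 4 control libraries were searched for a value far from the other three by Dixon's criterion, which chance alone meets in about 1 of 20 groups. It was met in 3. GRM3 in oligodendrocyte-like nuclei was low in control library 1, with 316.3 normalised CPM against 438.1 in the next lowest control. GRM3 and GRM8 in neuroblast-like nuclei were both high in control library 2, with 209.9 and 3043 normalised CPM against 76.54 and 1034 in the next highest controls. Groups of 3 are too small for this criterion, so that the OVT73 libraries were not searched.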

How the results depend on the processing

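The design cannot give an exact p below 0.0286, depth limited the small classes (17 eccentric MSN-like nuclei in the smallest library), and GRM2 could not be tested at all. No receptor passed an adjusted p of 0.05 under any alternative, the smallest being 0.0637 (GRM3 in astrocyte-like nuclei, no filter, edgeR). Directions near 0 were less stable, and of 436 alternative values for the 33 receptor and class pairs, 59 in 19 pairs changed sign. The cause was not tested. For 12 receptor and class levels, 43 of 44 alternative values were within 1 SD. The other was GRM8 in eccentric MSN-like nuclei, at 817 against 125 CPM, when the clusters made without the receptors were named anew, an alternative added after the data were seen. In the planned form a new cluster took the class that most of its nuclei had, and then none was eccentric MSN-like. Outside these 12, GRM7 in MSN-like nuclei of no subtype was 2875 CPM as a mean over nuclei, against 3180 ± 280. No paired analysis was possible because the labels give the libraries no shared replicate numbers.

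Without TMM factors the median log2 fold change of all genes moved from -0.04 to -0.13 in D1, from -0.03 to -0.13 in D2 MSN-like and from -0.03 to -0.15 in all nuclei. Signs then changed for GRM4 in D2 MSN-like (-0.037), GRM7 in MSN-like of no subtype (-0.055), GRM7 in PV/Th (-0.037), GRM3 in eccentric MSN-like (-0.021), GRM3 in oligodendrocyte-like (-0.051) and, in all nuclei, GRM3 (-0.080) and GRM7 (-0.070). Without a filter GRM8 was 0.025 in D2 MSN-like, 0.020 in OPC-like and 0.043 in eccentric MSN-like nuclei. With equal numbers of nuclei GRM7 was -0.54 in MSN-like of no subtype, GRM3 0.084 and GRM8 0.088 in OPC-like and GRM3 -0.13 in eccentric MSN-like nuclei. With the receptors left out of clustering GRM7 was -0.026 in MSN-like of no subtype. With doublets kept GRM7 was -0.014 in PV/Th interneuron-like nuclei. With DESeq2 GRM8 was 0.076 in eccentric MSN-like nuclei. In astrocyte-like cluster 9 alone, fitted after the data were seen, GRM8 was 0.046 and GRM7 0.22.

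Leaving out 1 library at a time gave ranges across 0. In D1 MSN-like nuclei GRM4 ran from -0.27 to 0.18. In D2 MSN-like nuclei GRM8 ran from -0.11 to 0.11 and GRM4 from -0.079 to 0.29. In MSN-like nuclei of no subtype GRM3 ran from -0.14 to 0.41, GRM7 from -0.063 to 0.13 and GRM4 from -0.39 to 0.42. In OPC-like nuclei GRM3 ran from -0.33 to 0.24 and GRM8 from -0.13 to 0.090, and in PV/Th interneuron-like nuclei GRM7 from -0.32 to 0.41. In astrocyte-like nuclei GRM8 ran from -0.68 to 0.44 and GRM7 from -0.81 to 1.02, and in microglia-like nuclei GRM8 from -0.62 to 0.96 and GRM7 from -1.24 to 0.38, with control library 3 out at the upper ends. In eccentric MSN-like nuclei GRM3 ran from -0.11 to 0.24, GRM8 from -0.34 to 0.61, GRM7 from -0.0084 to 0.16 and GRM4 from -0.12 to 0.42. In oligodendrocyte-like nuclei GRM3 ran from -0.078 to 0.15 and GRM8 from -0.0034 to 0.14. In all nuclei GRM3 ran from -0.045 to 0.080, GRM7 from -0.013 to 0.14 and GRM4 from -0.083 to 0.41. The thinned share of oligodendrocyte-like nuclei, OVT73 minus control, ran from -0.18 to 1.16 percentage points for GRM7 and from -0.19 to 0.42 for GRM8, and the D2 minus D1 effect of GRM7 from -0.0046 to 0.042.

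The count of genes called over the 10 classes was 2, and 158 with no filter, 26 with DESeq2, 1 with the receptors left out of clustering, 0 with equal numbers of nuclei and 0 to 15 with 1 library left out. Of the signalling list 2 tests were called with no filter and 0 otherwise. Of 507 alternative values for the named genes of that list, 506 kept their direction and side of the threshold, the other being DLGAP1 in microglia-like nuclei with no filter (log2 fold change 0.94), which then passed the threshold.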

Other observations

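Of the 10 unnamed clusters, 2 further ones were singled out after their values were seen. Cluster 11 (459 nuclei), led by CLSTN2, ASIC2 and CACNA2D3 and with the choline transporter gene SLC5A7 among its leading genes, had 2414 CPM ± 479 of GRM7, 1832 CPM ± 418 of GRM8 and 208 CPM ± 46.8 (SD, n = 7) of GRM3. Cluster 18 (211 nuclei), led by KCNIP4 and HS3ST4, had 1946 CPM ± 447 of GRM7 and 909 CPM ± 182 (SD, n = 7) of GRM8. These clusters did not meet the rule for a name.

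The share of all genes with as many classes on 1 side was not counted, so that the following count has no background. HOMER1, chosen across classes after its values were seen, had a positive log2 fold change of OVT73 over control in 9 of 10 classes, all but neuroblast-like nuclei (-0.07 ± 0.31, SE). It was 0.44 ± 0.18 in astrocyte-like nuclei, with 106 ± 13.7 normalised CPM in OVT73 (SD, n = 3) and 78.2 ± 11.2 in control libraries (SD, n = 4), and 0.31 ± 0.14 (SE) in oligodendrocyte-like nuclei. In the sum of all nuclei it was 0.28 ± 0.11 (SE, edgeR adjusted p = 0.83), with 262 ± 23.9 normalised CPM in OVT73 (SD, n = 3) and 215 ± 16.6 in control libraries (SD, n = 4). The lowest adjusted p over the 10 classes failed the threshold, and the classes share their libraries, so that they are not independent.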
